A study of Mus musculus with 2 samples.

Results

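The receptors and enzymes of sphingosine-1-phosphate (S1P) were followed from naive to activated CD8+ T cells. The set held 6 genes of the 18193 that could be named on the arrays, namely the receptors S1pr1 and S1pr4, the sphingosine kinases Sphk1 and Sphk2, the S1P phosphatase Sgpp1 and the S1P lyase Sgpl1. Every probe set annotated to exactly 1 of these genes was taken, 11 in all, and 0 further probe sets named a member together with another gene. Both groups came from pmel-1 mice, a strain whose CD8+ T cells share 1 transgenic T cell receptor, specific for an antigen of melanocytes. The naive group was purified resting CD8+ T cells, and the activated group was proliferating CD8+ T cells 72 h after activation. The sources used here do not state the stimulus, the organ or the age of the mice. For each group, RNA pooled from 4 independent experiments was hybridised to 1 Affymetrix mouse whole-genome array. With 1 array a group there is no spread between replicates and no test, and precision is limited by having so few arrays.

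S1P is a lipid signal that is abundant in blood and lymph and scarce inside lymphoid tissue. T cells sense this gradient mainly through S1PR1, a G protein-coupled receptor, and leave lymph nodes and thymus by it, and receptor loss after activation is known to hold T cells in the node. Inside the cell, ceramide is cleaved to sphingosine, sphingosine kinases phosphorylate it to S1P, S1P phosphatases return S1P to sphingosine, and S1P lyase, the exit of the pathway, cleaves S1P irreversibly.

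The label of the samples was checked against defining transcripts. The 7 CD8 T cell genes analysed of a list of 8 (Cd8a, Cd8b1, the CD3 chains, Cd247 and Zap70) lay between 1524 and 7725 in naive cells and between 1171 and 6597 in activated cells, while Cd4 stood at 45.1 and 50.5. All 7 had a log2 ratio below 0 (median -0.31), and 2 were lower by the size rule given below, Cd8b1 (7725 and 3554, 2.17-fold) and Cd247 (3036 and 1984, 1.53-fold). Cd8a did not pass by its brightest probe set (-0.31), but 4 of its 5 measured probe sets were lower by the rule, down to -1.39. It was also called lower under quantile normalization, under loess and with the mean of probe sets. The fold of Cd8b1 was larger than those of Sgpl1 and Sgpp1 given below, and the part of this shift in the members' values was not tested. Intensities of different probe sets are not comparable as RNA levels, so every ratio sets a gene against itself on the other array, and a nearness of intensities between genes describes the readings only. Values under 100 were raised to 100 before a ratio was formed, since such values carry little information, and a gene is called measured if its brightest probe set reached 100 on either array. A difference was counted by the size rule when it was at least 1.4-fold and larger than 100 intensity units. Of 9842 measured genes, 2027 were lower in activated cells (20.6%) and 2334 were higher (23.7%). In bulk RNA, fewer cells of a type and less RNA per cell cannot be told apart.

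Every measured member had a lower intensity in activated than in naive cells, by amounts that ranged from 6.28-fold for S1pr1 to 1.395-fold for S1pr4. By the size rule 3 of 5 measured members were lower (S1pr1, Sgpp1 and Sgpl1), against the 20.6% of measured genes that were lower, and 0 were higher. Since the members were chosen with earlier results of these data known, this count is a description only. The median log2 ratio of the 5 was -0.65, and over all measured genes it was 0.01. The sixth gene, Sphk1, lay under 100 on both arrays and has no ratio.

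**Figure D1:**
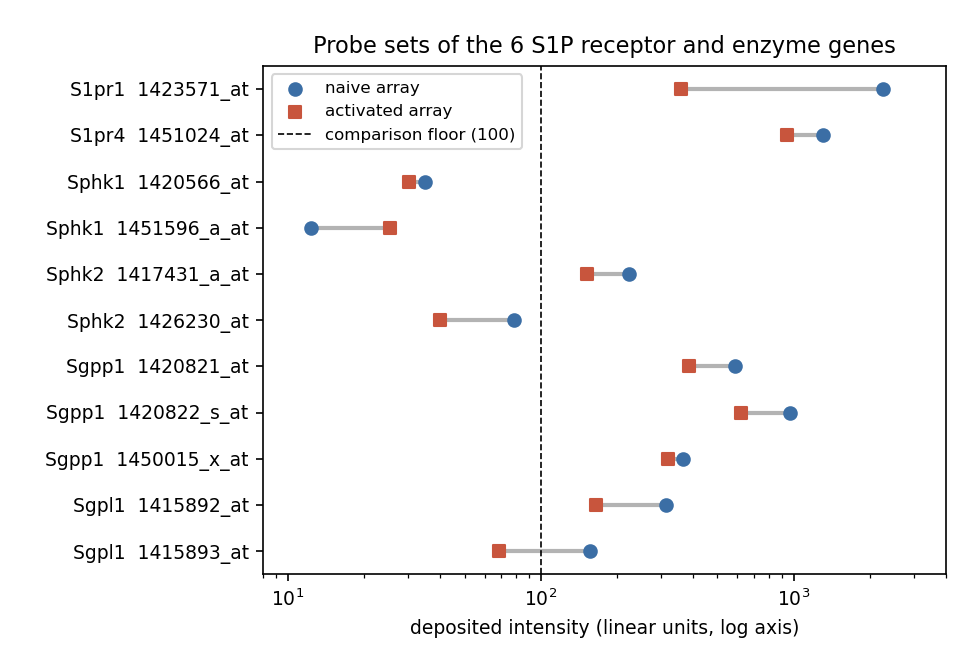
Deposited intensity of each of the 11 probe sets of the 6 genes on the naive array (circles) and the activated array (squares), on a log axis, with 1 array per group and no error bars. S1pr1 spans the widest distance, from 2253 to 359, both Sphk1 probe sets lie left of the dashed floor at 100, and the naive value is the higher one for every probe set that reaches 100.

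S1pr1, the egress receptor, had the largest difference of the set. Its single probe set, 1423571_at, read 2253 in naive and 359 in activated cells, a log2 ratio of -2.65. The transcript remained above 100 after activation. Among the 9842 measured genes this ratio ranked 60 from the lowest, so that 0.599% of measured genes had a lower one. The 3 genes whose pair of intensities lay nearest to S1pr1 on the log2 scale, over 2 arrays, were Als2cl (2052 and 350, at a log2 distance of 0.14), Samd9l (2254 and 412) and Klf3 (2439 and 404). Klf3 encodes a Krüppel-like transcription factor.

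S1pr4, a receptor found mainly on blood and lymphoid cells, differed far less. Its single probe set, 1451024_at, read 1312 on the naive and 940.0 on the activated array, a log2 ratio of -0.48. The difference of 372 units was ample, but the fold of 1.395 stopped just short of 1.4, so S1pr4 is not counted as lower. It would be counted after any of the 3 rescalings tried, with log2 ratios of -0.52 by median scaling, -0.55 by quantile normalization and -0.53 by loess. S1pr4 ranked 2352 from the lowest, and 23.9% of measured genes had a lower ratio. Its log2 ratio thus lay 2.17 units above that of S1pr1.

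The 3 remaining S1P receptors gave no comparable pattern. S1pr2, a receptor known to oppose migration, read 132 and 134 (log2 ratio 0.02, turning to -0.03 under median scaling). S1pr3 read 17.2 and 31.6, and S1pr5, the receptor by which natural killer cells leave tissue, read 10.2 and 4.19, both under 100 on both arrays. By their brightest probe sets, none of these 3 read above 134 on either array.

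The kinases that make S1P were near or under the floor. Sphk1, the isoform induced by many growth signals, read 34.75 and 30.2 by probe set 1420566_at and 12.4 and 25.5 by 1451596_a_at. These values lie where the arrays do not separate a low level from background, so no direction is given. Sphk2, the isoform found largely in the nucleus and on internal membranes, read 223 and 153 by 1417431_a_at, a log2 ratio of -0.54. Its fold of 1.46 was past 1.4, but the difference of 69.9 units was below 100, and Sphk2 is not counted as lower. With a difference minimum of 50 it would be. The second Sphk2 probe set, 1426230_at, read 78.65 and 40.2, also lower on the activated array but under 100 on both.

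Both enzymes that remove S1P were lower in activated cells by their brightest probe sets. Sgpp1, the phosphatase of the endoplasmic reticulum that returns S1P to sphingosine, had 3 probe sets above 100 on both arrays. The brightest, 1420822_s_at, read 969.7 and 618 (1.57-fold lower, log2 ratio -0.65). The second, 1420821_at, read 585 and 387 (1.51-fold lower, log2 ratio -0.59) and passed the size rule too. The third, 1450015_x_at, read 366.5 and 318 (log2 ratio -0.20) and did not pass. All 3 lay on the same side of 0, over a range of 0.45 log2 units. The suffixes mark probe sets whose probes can match more than 1 transcript (s) or also resemble other sequences (x), and the 1420821_at set carries neither mark.

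Sgpl1, the lyase, read 314.5 and 165 by 1415892_at (1.90-fold lower, log2 ratio -0.93). Its other probe set, 1415893_at, read 157 and 68.3, at least 1.57-fold lower because the activated value is under 100, and its difference of 88.6 units did not reach the minimum. Both Sgpl1 probe sets were therefore lower on the activated array, with 1 of the 2 past the size rule, as were 19.3% of measured probe sets in this direction (21.9% in the other). Among measured genes 10.6% had a ratio below that of Sgpl1, and 17.8% below that of Sgpp1. Aldh3a2, the aldehyde dehydrogenase that oxidises the fatty aldehyde released by the lyase, read 274 and 146 (1.88-fold lower), close to the fold of Sgpl1.

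**Figure D2:**
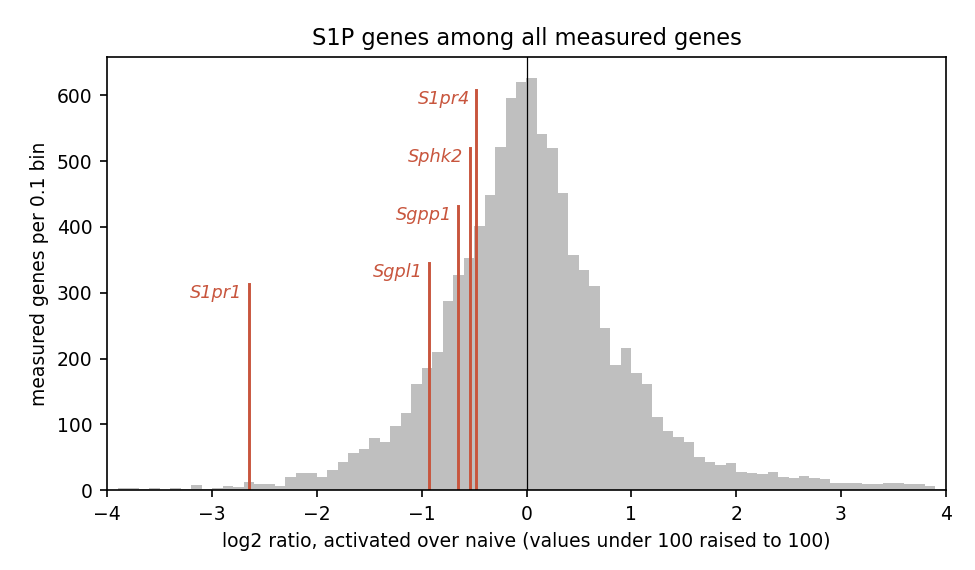
Histogram of the log2 ratio of activated over naive intensity for the 9842 measured genes in bins of 0.1, with the 5 measured members marked by lines whose heights have no meaning; the 32 genes beyond the axis limits of -4 and 4 are not drawn. S1pr1 at -2.65 stands in the left tail, while S1pr4, Sphk2, Sgpp1 and Sgpl1 lie between -0.48 and -0.93 on the left shoulder.

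Without replicates, 2 spreads within the arrays are given for scale. Neither holds the variation between mice or between pools, so neither is the error of a group difference. The first is between 9 spike-in control probe sets above 100, whose log2 ratios ran from -0.33 to 0.13 with a standard deviation of 0.16. All 5 measured members lay below that range. So did the 23.9% of measured genes whose ratio was below that of S1pr4, among others. The second is between probe sets of the same gene, and it is wider. Over 3404 genes with at least 2 probe sets above 100 on both arrays, log2 ratios of the same gene had a pooled standard deviation of 0.39. It was 0.39 for genes whose brightest probe set averaged under 300, 0.40 between 300 and 1000, and 0.38 over 1000, so brighter genes were no closer in this respect. The log2 ratio of S1pr1 was 6.82 times this spread, that of Sgpl1 2.39 times, that of Sgpp1 1.67 times, that of Sphk2 1.40 times and that of S1pr4 1.24 times. The ratios of Sgpp1, Sphk2 and S1pr4 thus lie within 2 of these wider spreads of 0. These multiples describe the arrays and are no test.

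The 4 members other than S1pr1 had close company on both arrays. The genes nearest to Sgpp1 were Os9 (978 and 614), Clip1 and Gtpbp1, all within a log2 distance of 0.0204. Nearest to S1pr4 were Mterf3 (1325 and 944), Brd2 and Plgrkt, within 0.0359. Nearest to Sphk2 were A930013F10Rik, Arrb1 and Arv1, within 0.0431, and nearest to Sgpl1 were Fgd6, Tmppe and Plekho1, within 0.0622.

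The promoters of the genes that remove S1P and of S1pr4 are shown because they have 1 annotated start each and were chosen, after they were seen, for their plain difference in base composition. RefSeq windows (GRCm38.p6, 250 bases before to 50 after an annotated start) matched 5 of the 6 genes, the exception being S1pr1. Capitals mark CG dinucleotides, the sites of DNA methylation, and each sequence runs 5′ to 3′ along the gene's own strand, which is the minus strand in each case. The windows are chr12:75735680-75735979 for Sgpp1, chr10:61147635-61147934 for Sgpl1 and chr10:81500088-81500387 for S1pr4.
Sgpp1: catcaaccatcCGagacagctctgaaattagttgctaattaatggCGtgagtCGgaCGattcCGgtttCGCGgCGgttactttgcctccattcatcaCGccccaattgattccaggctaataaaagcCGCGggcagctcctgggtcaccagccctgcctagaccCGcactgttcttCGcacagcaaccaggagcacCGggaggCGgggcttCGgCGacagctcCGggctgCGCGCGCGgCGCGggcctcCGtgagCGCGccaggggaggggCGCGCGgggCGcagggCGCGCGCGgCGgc
Sgpl1: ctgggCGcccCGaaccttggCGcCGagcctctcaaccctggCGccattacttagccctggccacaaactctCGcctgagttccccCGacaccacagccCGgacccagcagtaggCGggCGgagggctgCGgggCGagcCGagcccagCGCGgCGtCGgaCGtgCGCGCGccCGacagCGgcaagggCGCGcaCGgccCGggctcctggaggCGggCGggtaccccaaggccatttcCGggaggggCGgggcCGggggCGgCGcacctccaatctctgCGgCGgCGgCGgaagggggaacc
S1pr4: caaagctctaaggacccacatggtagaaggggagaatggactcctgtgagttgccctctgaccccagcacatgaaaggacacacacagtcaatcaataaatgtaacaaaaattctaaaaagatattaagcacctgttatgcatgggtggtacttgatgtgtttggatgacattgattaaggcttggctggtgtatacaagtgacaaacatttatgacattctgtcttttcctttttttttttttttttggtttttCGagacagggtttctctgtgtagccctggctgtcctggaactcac
The Sgpp1 window held 36 CG dinucleotides at 66.0% G and C, and the Sgpl1 window 38 at 75.3%. The S1pr4 window held 1 at 41.0% and contains a long run of T. Over 32851 windows of the same length the middle of the distribution ran from 3 to 20 CG dinucleotides (median 7) and from 45.67% to 61.67% G and C. Both enzyme windows thus lie above the upper quartile on both measures, and the S1pr4 window lies below the lower quartile on both. Whether composition relates to the calls was not tested. The 2 windows of Sphk2, which was not counted as lower, held 27 and 33 CG dinucleotides at 65.3% and 66.0% G and C, also above both upper quartiles. The 5 windows of Sphk1 held 6 to 21 at 53.0% to 58.0%. The letters CACCC, a core that Krüppel-like factors such as KLF2 recognise, were searched on both strands. They were present once in the S1pr4 window, as GGGTG, in neither the Sgpp1 nor the Sgpl1 window, in both Sphk2 windows and in 4 of the 5 Sphk1 windows, against 57.5% of all windows with at least 1 match. A match of 5 letters is a description of the window only.

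Genes around the members were read from lists of S1P and ceramide metabolism, receptor signalling and egress. Over the 8 lists, 55 of 74 genes were measured, of which 22 were lower and 9 higher by the size rule, with a median log2 ratio of -0.24, against 20.6% lower, 23.7% higher and a median of 0.01 over all measured genes. The lists too were chosen with earlier results of these data known, so these counts are a description only.

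**Figure D3:**
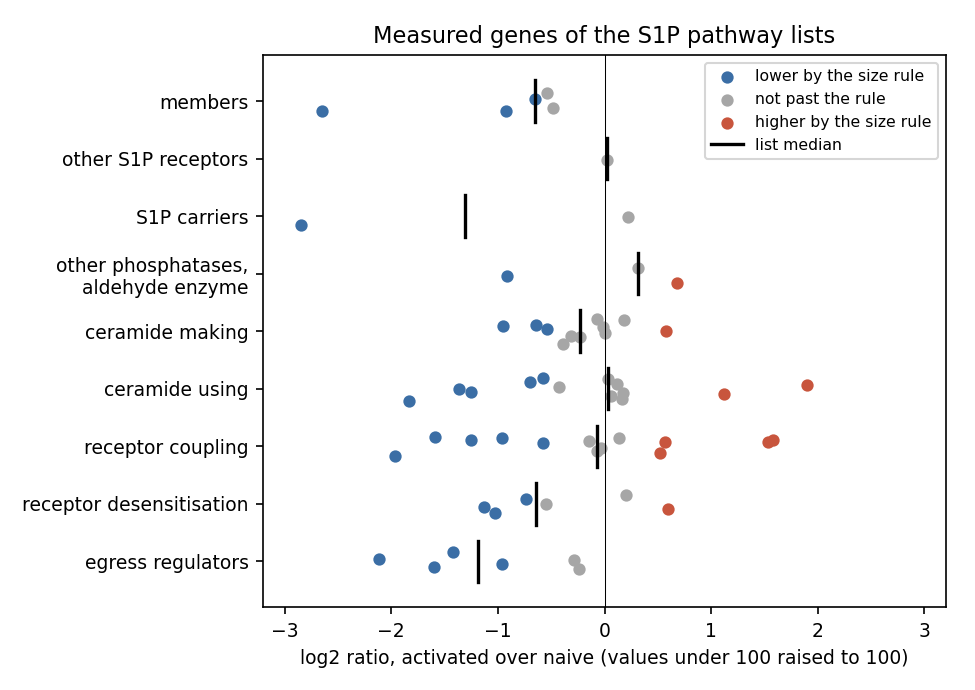
Log2 ratio of activated over naive intensity for each measured gene of the 6 members and of 8 lists around them, coloured by the size rule, with a black bar at each list's median; vertical scatter within a list has no meaning. The egress regulators and receptor desensitisation genes have medians of -1.19 and -0.64, the ceramide and coupling lists spread to both sides of 0, and the members lie wholly left of 0.

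The egress regulators were lower or not past the rule. Of 6 measured genes 4 were lower and 0 higher, with a median log2 ratio of -1.19 and all 6 below 0. Over all 9842 measured genes 20.6% were lower, 23.7% were higher and 4854 had a ratio below 0. Each list count that follows is to be read beside these shares. Klf2, the transcription factor that drives S1pr1 expression in resting T cells, read 3778 and 1409 (2.68-fold lower) by its only probe set. Foxo1, which acts upstream of Klf2, was 3.04-fold lower, and its 3 measured probe sets ran from -1.72 to -1.45 on the log2 scale. Il7r, the interleukin-7 receptor chain of resting T cells, read 4369 and 1011 (4.32-fold lower). Ccr7, the chemokine receptor for entering and staying in lymph nodes, read 3536 and 1815 (1.95-fold lower). Cd69, whose product binds S1PR1 and withdraws it from the surface, read 1049.8 and 860.1 and did not pass the size rule. Stat3, which has been linked to S1pr1 signalling, read 1172 and 991 and did not pass either, although another of its probe sets did, at -1.02 or below, since its activated value was under 100.

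Genes that switch off or internalise G protein-coupled receptors were lower for 3 of 6 measured members and higher for 1 (median -0.64). Grk6, a receptor kinase, read 3560.5 and 1630.2 (2.18-fold lower), and all 3 of its probe sets passed the rule. Arrb2, beta-arrestin 2, was 2.04-fold lower by the brighter of its 2 probe sets, both of which passed. Dnm2, the dynamin that pinches off endocytic vesicles, was 1.67-fold lower, with 6 of 6 measured probe sets past the rule. Cltc, the clathrin heavy chain, read 2168 and 3281 (1.51-fold higher), but its second probe set was lower at -0.74, and the higher call was lost under quantile normalization, under loess and with the mean of probe sets. Arrb1 read 219.6 and 149.95 and Grk5 64.7 and 115, and neither passed. Grk2, the receptor kinase best known to act on S1PR1, was not analysed here.

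Genes that carry the receptor signal went both ways, with 5 of 13 measured genes lower and 4 higher (median -0.07). Arhgap45, encoding a GTPase-activating protein, was 3.89-fold lower (1990.1 and 511), and Arhgef1, an exchange factor activated by G12/13 proteins, 3.001-fold lower (2818 and 939). Dock2, the Rac activator used in lymphocyte migration, was 2.38-fold lower by its brightest probe set, and Rac2, the Rac form of blood cells, 1.95-fold lower. Gnai2, the inhibitory G protein subunit through which S1PR1 signals, read 2604 and 1748 (1.49-fold lower), while its second probe set at -0.44 did not pass. Gnaq was at least 2.98-fold higher (75.5 and 298) by 1 of 3 measured probe sets. Gng2 read 279 and 809 (2.89-fold higher), but its 3 other measured probe sets were all lower, down to -1.07, and its log2 ratio turned to -1.14 under quantile normalization, so Gng2 has no settled direction. Gnai3 (2182 and 2081) and Rhoa (3648 and 3561) lay nearest to no difference. The Rac1 and Gnb1 calls, 1.48-fold and 1.43-fold higher, were lost under quantile normalization, under loess, with the mean of probe sets and with the probe set nearest to no difference, and that of Gnb1 also under median scaling. Like every call under 2-fold, they were lost with a fold minimum of 2 as well.

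Among genes that move S1P or its relatives across or along membranes, Abca1 had the largest difference. Abca1, a lipid exporter best known for cholesterol, read 721 and 74.7 (at least 7.21-fold lower). Its other 2 probe sets were under 100 on both arrays. Abcc1, an exporter reported to release S1P from some cells, read 358 and 417 and did not pass. The dedicated S1P exporters Spns2 (49.85 and 30.5), of endothelium, and Mfsd2b (58.3 and 65.5), of red cells and platelets, were under 100 on both arrays, as was Apom (11.6 and 11.3), the S1P carrier of lipoproteins. Of the lipid phosphatases that can also act on S1P, Plpp2 read 34.7 and 160 (at least 1.597-fold higher) and Plpp1 34.75 and 124 without passing the difference minimum. Sgpp2 (14 and 22.8) and Plpp3 (5.07 and 20.0) were under 100 on both arrays.

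Ceramide metabolism, which supplies sphingosine, was mixed. Of 11 measured genes that make ceramide, 3 were lower and 1 higher (median -0.23). Sptlc1, a subunit of the first enzyme of the pathway, was 1.49-fold higher (655 and 978), with all 3 measured probe sets past the rule, although under quantile normalization its log2 ratio of 0.48 did not pass. Its partner Sptlc2 stood at 343 on both arrays. Cers6, a ceramide synthase, was 1.93-fold lower (1178 and 609), Kdsr 1.55-fold and the small subunit Sptssa 1.45-fold, while Cers5 read 964 and 958. Only 1 of 3 measured Kdsr probe sets passed. The Kdsr call was lost with the mean of probe sets and with the probe set nearest to no difference. Of 13 measured genes that use or split ceramide and its derivatives, 5 were lower and 2 higher (median 0.03). Asah1, the acid ceramidase that releases sphingosine in lysosomes, read 374 and 816 (2.18-fold higher), the opposite direction to every measured member. Smpd4, a sphingomyelinase, read 104 and 389.6 (3.74-fold higher, log2 ratio 1.90), and all 4 of its probe sets passed the rule. The others gave smaller log2 ratios, 1.05 and, with naive values under 100, at least 0.90 and 0.99. Sgms1, a sphingomyelin synthase, was at least 3.57-fold lower (357 and 38.9), with 3 of 3 measured probe sets past the rule. Cerk, the ceramide kinase, was at least 2.56-fold lower and the sphingomyelinase gene Smpd2 2.38-fold lower, while Acer2 (132 and 135) and the ceramide transfer gene Cert1 (1099 and 1149) lay nearest to no difference.

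Some transcripts of other blood cells were also lower on the activated array, and S1P receptors are known from several of these cells. The sums below include values under 100. Summed over 7 B cell markers the intensity was 784 in naive and 252 in activated cells, with 1 of 3 measured markers lower by the rule (Cd79b, 293 and 40.04). The 8 dendritic cell and class II markers summed to 5998 and 962, led by Cd74 (3003 and 405) and H2-Aa (2007 and 82.99), with 3 of 4 measured lower. The 4 natural killer markers summed to 1281 and 280, with 3 of 3 measured lower, among them Eomes, which CD8 T cells express too. The 8 myeloid markers summed to 1184 and 672, with 2 of 2 measured lower, although a second Csf1r probe set at -0.20 did not pass. Sums for the 6 endothelial markers were 707 and 403, where only Pecam1, also a leukocyte gene, reached 100, for the 5 erythroid markers 343 and 211, for the 6 platelet markers 599 and 582 and for the 4 CD4 T cell markers 251 and 235. By the rule 0 of 2 measured erythroid, 0 of 2 platelet and 0 of 1 CD4 T cell markers were lower. The erythroid marker Alas2 read 127 and 1.0, and did not pass because its activated value was raised to 100. With a floor of 50 it was lower, at a log2 ratio of -1.35 or below. Probe sets shared by both alpha-globin genes read 8254 and 25.4 at the brightest. No marker of these lists was listed at 0, and Alas2 (erythroid) and S100a9 (myeloid) stood at 1, the lowest deposited value, on the activated array. The part of other cells in the lower S1pr1, S1pr4, Sgpp1 and Sgpl1 values was not tested.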

How the data were processed

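RNA of each group, pooled from 4 experiments, was hybridised to 1 Affymetrix array. The authors deposited a linear-scale intensity for each probe set, computed with the perfect-match minus mismatch model of dChip and normalized by its invariant set method, per the labels' design text. Detection calls, for which the design text names GCOS 1.3, were not used here, and no version of dChip is given in the sources used here. Of 45101 probe sets, 64 controls were left out, 34945 had 1 symbol in the platform annotation, 932 several and 9160 none. Each of 18193 genes was represented by its brightest probe set over both arrays. The size rule keeps the parts of the study's own rule that intensities allow. Members and lists were chosen with earlier results of these data known. Named are all members, all receptors, carriers, phosphatases and egress genes, and in each other list up to 4 genes with the largest ratio past the rule and 2 nearest to 0. The 3 genes nearest to each member were found by Euclidean distance of log2 intensities. Asah1, Rac2, Rac1, Gnb1, Dock2 and Gnai2 were added after their values were seen. The calling step was tested on simulated data. Python 3.11.15 with pandas 2.3.3 was used. Alternatives covered the fold, difference and floor, 3 rescalings (loess with a span of 0.3) and 2 ways to combine probe sets.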

Additional observations from a re-analysis of the deposited data

How the results depend on the processing

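S1pr1 was lower by the size rule under all 10 alternatives, with log2 ratios from -2.72 to -2.65. Sgpp1 was lower under 8 (-0.74 to -0.20), Sgpl1 under 7 (-1.01 to -0.65), S1pr4 under 3 (-0.55 to -0.48) and Sphk2 under 1 (-0.58 to -0.16), and all of them kept a ratio below 0. The count of members lower by the rule was 1 in place of 3 with a fold minimum of 2, and also 1 when each gene was taken from its probe set nearest to no difference. With a fold minimum of 2, the surrounding lists had 12 lower and 4 higher genes (16 in all) in place of 22 and 9 (31), and all measured genes 904 and 1193 (2097) in place of 2027 and 2334 (4361), fewer because the bar is higher. Higher genes of the lists numbered 4 under quantile normalization, 5 with the mean of probe sets and 5 with the probe set nearest to no difference, and the cause was not tested. Rescaling moved the median log2 ratio by -0.04 to -0.02, but some bright genes moved more. Under quantile normalization Cd3d went from -0.16 to -0.49, then lower by the rule, and Rac1 from 0.57 to 0.35, no longer higher by it. No paired analysis was possible because each group is 1 array, and for the same reason no replicate could be left out. Intensities near 100 limit what can be said of Sphk1, Sphk2, S1pr2 and the second Sgpl1 probe set.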
